A study of Homo sapiens with 4 samples.

Results

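Interferon response and antigen presentation were followed through 49 genes chosen by name from the 23362 entries of a gene expression table. They are 6 receptor chains and kinases, 7 STAT and IRF transcription factors, 5 nucleic acid sensors and adaptors, 23 effectors and 8 genes of MHC class I presentation. All 49 symbols were found in the table, and where a symbol had more than 1 entry, the entry with the highest mean was used. The table covers MKN28, a human gastric adenocarcinoma cell line, with 1 library of poly(A) RNA for each of 4 groups. All 4 are tet-on lines made by retroviral transduction and drug selection. They carry a luciferase control (Luc), KIAA1324 WT, the 3NQ mutant, in which N-glycosylation asparagines of KIAA1324 were changed to glutamine, or ΔTM, which lacks the transmembrane domain. Neither the labels nor the methods state whether doxycycline was given to the cells before RNA was taken, or whether the lines were clones or pools. The comparison asks how the transcripts of this pathway differ between control cells and cells carrying the intact or mutated KIAA1324. Differences between the libraries therefore have no replicate behind them and carry no p-value.

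Interferons are secreted proteins that cells release when sensors such as RIG-I or MDA5 meet foreign or misplaced nucleic acid. Type I interferons (IFN-beta among them) bind IFNAR1 and IFNAR2, type II interferon binds IFNGR1 and IFNGR2, and type III interferons (the IFN-lambdas) act mostly on epithelia. The receptors signal through Janus kinases to STAT proteins, with JAK1 used by all of them and TYK2 by those of type I and type III. STAT2 and IRF9 are subunits of the complex ISGF3, which binds the interferon-stimulated response element (ISRE) in the promoters of antiviral effectors, while STAT dimers bind the GAS element. Many class I presentation genes, which display peptides to cytotoxic T cells, answer to the same signals.

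The element that joins many of these genes was looked for in promoters from RefSeq, taken from 250 bases before to 50 after the gene start on GRCh38.p14. Promoters were found for 37 of the 49 genes, and not for IFNAR2, IRF2, IRF3, IRF7, DHX58, TMEM173, IFIT2, MX2, OAS2, OASL, USP18 and GBP2. The core of the ISRE, searched on both strands as GAAA, any 2 bases and GAAA again, was in 20 of the 37 promoters (54.1%), compared to 4.38% of 27305 promoters of all genes. It was in 14 of 17 effectors (82.4%) and in 5 of 8 class I genes (62.5%), whereas none of 5 receptor and kinase promoters and none of 4 factor promoters held it. The GAS core, TTCNNNGAA on both strands, was in 9 of the 37 (24.3%), against 9.38% of all promoters. These are matches of letters and not measured binding. The effectors below were shown because they hold the element and yet differed in level. They ranged from listed at 0 in all libraries (OAS3) to 259 FPKM in Luc (IFIT1). B2M and IFNL1 are single examples from class I and from the interferon ligands. The ISRE core was in 5 of 18 ligand promoters (27.8%), and that of IFNB1 did not hold it. Each stretch is written along the strand of its gene, and capitals mark ISRE cores on either strand, some of which overlap.

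ISG15: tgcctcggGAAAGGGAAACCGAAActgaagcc
IFIT1: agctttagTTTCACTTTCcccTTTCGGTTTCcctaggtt
IFIT3: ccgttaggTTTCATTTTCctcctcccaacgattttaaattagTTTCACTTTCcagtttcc
IFI6: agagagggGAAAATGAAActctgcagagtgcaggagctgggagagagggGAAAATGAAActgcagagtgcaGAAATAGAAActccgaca
IFI44L: ctagtgagGAAAAAGAAAgttagtgg
OAS3: aaagaaacGAAACTGAAAgcagggaa
BST2: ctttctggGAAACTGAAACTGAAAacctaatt
B2M: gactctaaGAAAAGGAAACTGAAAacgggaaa
IFNL1: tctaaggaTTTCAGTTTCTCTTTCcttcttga

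On GRCh37, the build of the deposited table, the 250 bases before each start matched 1 place exactly on the chromosome of the gene. The shorter stretches were not searched for on their own, and their places were read from that match. On the plus strand these were chr1:948756-948787 for ISG15, chr10:91152256-91152294 for IFIT1, chr10:91087590-91087649 for IFIT3, chr1:79085961-79085986 for IFI44L, chr12:113376128-113376153 for OAS3, chr15:45003563-45003594 for B2M and chr19:39786825-39786856 for IFNL1. On the minus strand they were chr1:27998779-27998867 for IFI6 and chr19:17516546-17516577 for BST2. The stretches of ISG15, IFIT1, IFIT3, IFI6, BST2, B2M and IFNL1 show every core found before the RefSeq start of the gene. Those of IFI44L and OAS3 show 1 of the 2, since a stretch that overlapped the deposited interval of its gene was cut to 1 core. The IFI44L stretch still lies inside that interval, which begins at 79085607, although it is before the RefSeq start.

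The authors gave each gene as FPKM, fragments per kilobase of transcript, scaled to the mapped fragments of the library, so that levels of different genes are per length. The FPKM summed to between 560540 and 585104 per library. KIAA1324 (ENSG00000116299) stood at 2.86 FPKM in Luc, 11185 in WT and 8197 in 3NQ, but it was listed at 0 in the library labelled ΔTM, below its level in Luc. A listed 0 can be a failed estimate, so it does not settle whether the transcript was absent. Because the 0 goes against the label, that library is called the library labelled ΔTM, and every direction drawn from it carries this limit. The epithelial markers EPCAM, KRT8, KRT18, KRT19, CDH1 and CLDN4 were all expressed, at 174 FPKM or more in every library, and each was highest in Luc. Of these, the keratins KRT8 (8501 FPKM in Luc and 4510 in WT, a log2 ratio of −0.91) and KRT18 (3684 and 2115, −0.80) were called lower in WT, where 3.34% of all tested genes were. Both were also called lower in WT than in the library labelled ΔTM. Their part in the differences of WT given here was not tested. The immune markers PTPRC, CD3E, CD79A, CD14, NKG7 and LAPTM5 summed to between 0.175 and 0.386 FPKM. Of 5 stromal and endothelial markers in the table, only COL1A1 reached 1 FPKM. The smallest steps of the values were looked for in 132 single-exon genes of 800 to 1200 bases. Only 10 of them gave such a value in Luc, 18 in WT and 21 in 3NQ, against 13 in the library labelled ΔTM. From these, 1 fragment was worth about 0.0714 FPKM in Luc, 0.0778 in WT and 0.0662 in 3NQ, against 0.0701 in the library labelled ΔTM for a transcript of 1 kb.

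Of the 49 genes, 45 reached 1 FPKM in at least 1 library, as did 11769 entries of the whole table, and only these were compared. The other 4 were OAS2 and OAS3, listed at 0 in every library, GBP1, at 0.96 in Luc, 0.99 in WT and 0.64 in 3NQ, against 0.92 in the library labelled ΔTM, and PSMB8, at 0.25, 0.09, 0.22 and 0.22. Guanylate-binding protein GBP1 and the immunoproteasome subunit PSMB8 were thus near or below the level of the filter. MX2 and XAF1 passed the filter only through libraries in which they were high, so that counts over the 45 genes are descriptions and not support for a difference.

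**Figure D1:**
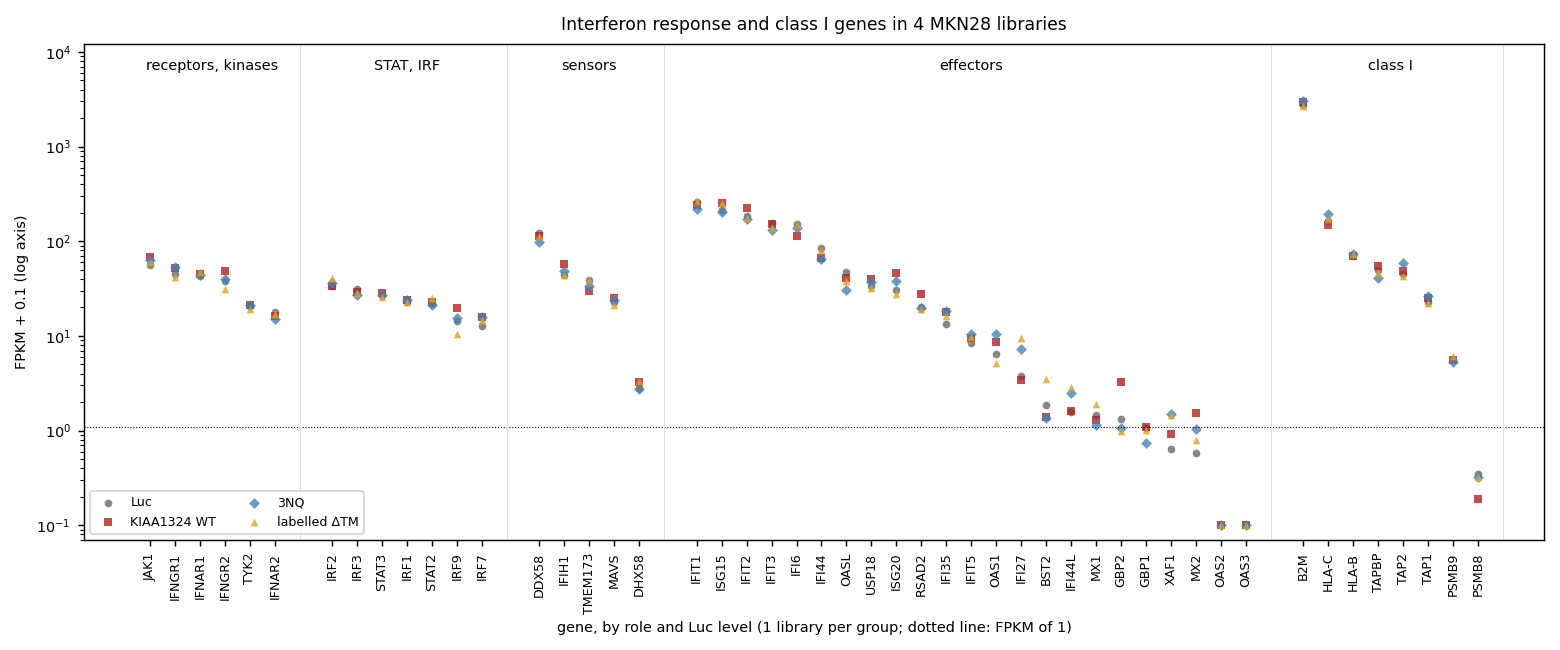
FPKM + 0.1 on a log axis for the 49 genes, grouped by role and ordered by their level in Luc, with 1 point per library and no replicates. The 4 points of most genes lie close together, and wide separations are seen mainly among effectors of low level (GBP2, IFI27, BST2), with the factor IRF9, from 10.4 to 19.5 FPKM, as an exception outside the effectors.

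Much of the pathway was expressed in the control cells, which carry no KIAA1324 construct, though not all of it at a high level. The median in Luc was 22.6 FPKM over the 49 genes and 8.40 over the 23 effectors, against 16.2 over all tested genes. In Luc, 8 of the 45 genes lay above 90% of all tested genes, namely the effectors IFIT1, ISG15, IFIT2, IFIT3 and IFI6, the sensor DDX58, and the class I genes HLA-C and B2M. Other effectors of the same pathway had low values in the same library, since MX1 had 1.36 FPKM and IFI44L had 1.46. OAS2 and OAS3 were listed at 0, which can be a failed estimate. The plot of FPKM by role shows this spread, from 0 to 259 FPKM among the effectors in Luc, against 12.6 to 33.5 FPKM among the 7 factors.

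Differences between libraries were expressed as log2((FPKM + 1)/(FPKM + 1)), which understates the change of low genes, and a gene was called higher or lower from 1.5-fold, or 0.585 on that scale. In WT against Luc, ISG20, MX2 and GBP2 were higher and none was lower, or 6.67% and 0% of the 45 genes, where 3.36% of all tested genes were higher and 3.34% lower. In 3NQ against Luc, IFI27, OAS1 and XAF1 were higher and OASL was lower, or 6.67% and 2.22%, against 1.77% and 2.57% of all tested genes. In the library labelled ΔTM against Luc, IFI27, IFI44L, XAF1 and BST2 were higher and none was lower, or 8.89% and 0%, against 1.54% and 1.57%. Over all tested genes, the higher ones made up 49.5% of the calls in that comparison, and 59.9% on rescaling with the median of ratios. All 9 of these genes are effectors. In each direction these are at most 4 genes, and 5 of the 9 (MX2, GBP2, XAF1, IFI44L and BST2) were below 5 FPKM in every library. The 3 comparisons share the Luc library.

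Over the 45 genes, the median ratio on the log2 scale was 0.10 in WT and 0.061 in 3NQ, against −0.0096 in the library labelled ΔTM, while that of all tested genes was −0.0049, −0.038 and −0.060. Rescaling by the median of ratios turned the value of the library labelled ΔTM to 0.052. Of the 45 genes, 31 were above Luc in WT and 25 in 3NQ, against 21 in the library labelled ΔTM. The share of all tested genes above Luc is not given here, and their median falls in the same order. The median fold between the highest and the lowest library was 1.26, compared to 1.24 over all tested genes. By role it was 1.39 in effectors, 1.25 in sensors, 1.20 in receptors and kinases, 1.17 in class I genes and 1.16 in factors. The median level in Luc, over all genes of a role, was 8.40 FPKM in effectors, against 22.6 to 47.3 in the other roles. Whether the wider range of effectors goes with their lower level was not tested.

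**Figure D2:**
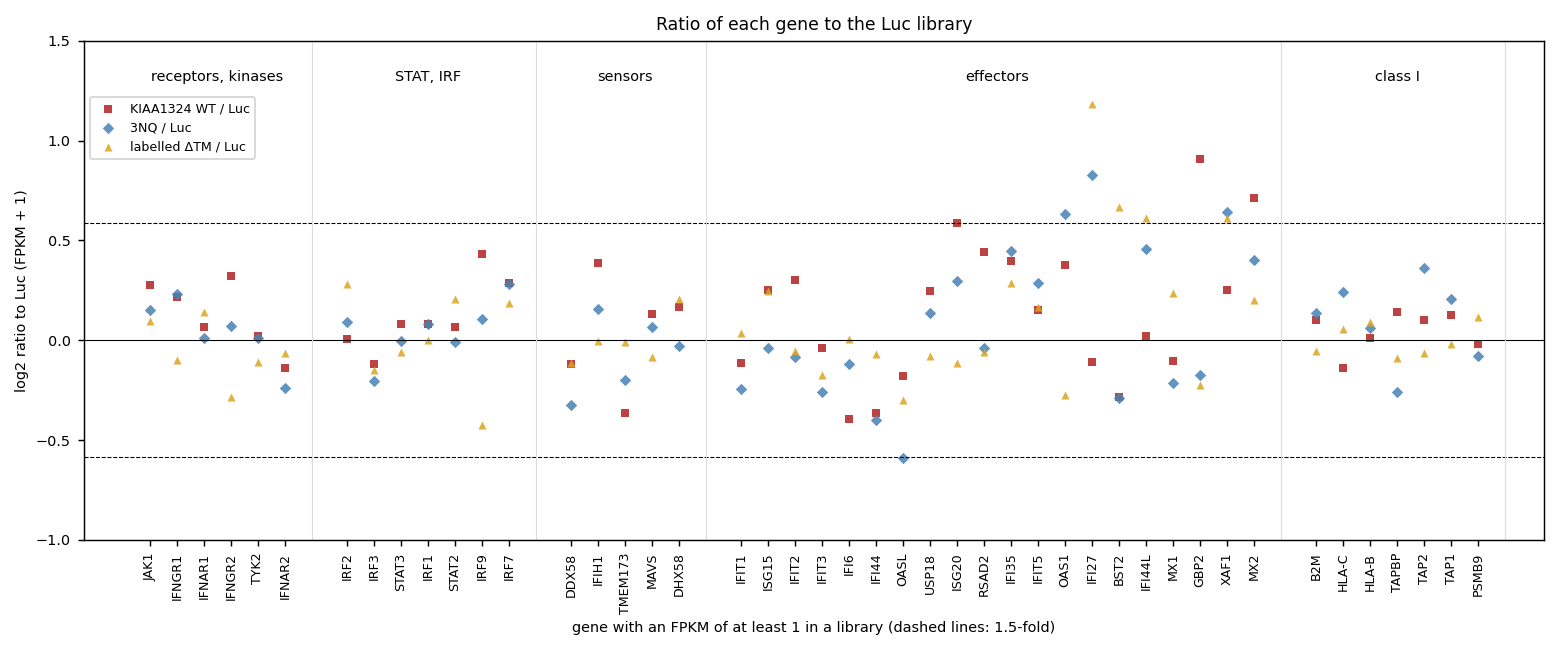
Log2 ratio of FPKM + 1 to the Luc library for the 45 compared genes, by role, with 1 point for each of WT, 3NQ and the library labelled ΔTM and dashed lines at 1.5-fold. The points beyond the lines are all effectors. Among them, GBP2 and MX2 are high in WT and BST2 in the library labelled ΔTM. IFI27 and XAF1 are high in 3NQ and also in the library labelled ΔTM.

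Ligands were not among the 49 genes and were read from a separate list of 21 interferon genes. Only IFNB1, IFNL1, IFNL2 and IFNL3 reached 1 FPKM in a library. All 4 were called higher in WT than in Luc, where 3.36% of all tested genes were. IFNB1 alone was also called higher in 3NQ than in Luc, where 1.77% of all tested genes were. No ligand was called in the library labelled ΔTM against Luc. IFNB1 (ENSG00000171855), the gene of IFN-beta on chromosome 9 from 21077104 to 21077943, had 3.70 FPKM in Luc, 11.0 in WT and 6.48 in 3NQ, against 4.59 in the library labelled ΔTM, with a log2 ratio to Luc of 1.35, 0.67 and 0.25. WT was the highest and Luc the lowest of the 4. IFNB1 has 1 exon of 840 bases, and with the worth of a fragment given above, these values correspond to about 43, 119, 82 and 55 fragments.

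The IFN-lambda genes lie together on chromosome 19. IFNL1 had 7.34 FPKM in Luc, 15.7 in WT and 10.3 in 3NQ, against 7.11 in the library labelled ΔTM. IFNL2 had 2.74, 6.23, 4.14 and 2.20, and IFNL3 had 4.16, 10.4, 4.41 and 3.12. Each was highest in WT and lowest in the library labelled ΔTM, with log2 ratios of WT to Luc of 1.01, 0.95 and 1.15. IFNL2 and IFNL3 are near-identical copies that share reads, so how the signal divides between them is uncertain. Against 3NQ, IFNB1 (0.68, and 0.48, short of the threshold, with a pseudocount of 5) and IFNL3 (1.08) were called higher in WT, where 2.89% of all tested genes were, whereas IFNL1 (0.57) and IFNL2 (0.49) did not reach 1.5-fold. Against the library labelled ΔTM all 4 were called higher in WT, by 1.05 to 1.47, where 4.25% of all tested genes were. In 3NQ against that library, IFNL2 alone was called higher (0.68, and 0.34, short of the threshold, with a pseudocount of 5), where 1.46% of all tested genes were. The interferon-gamma gene IFNG and another 7 of the list were listed at 0 in all 4 libraries.

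**Figure D3:**
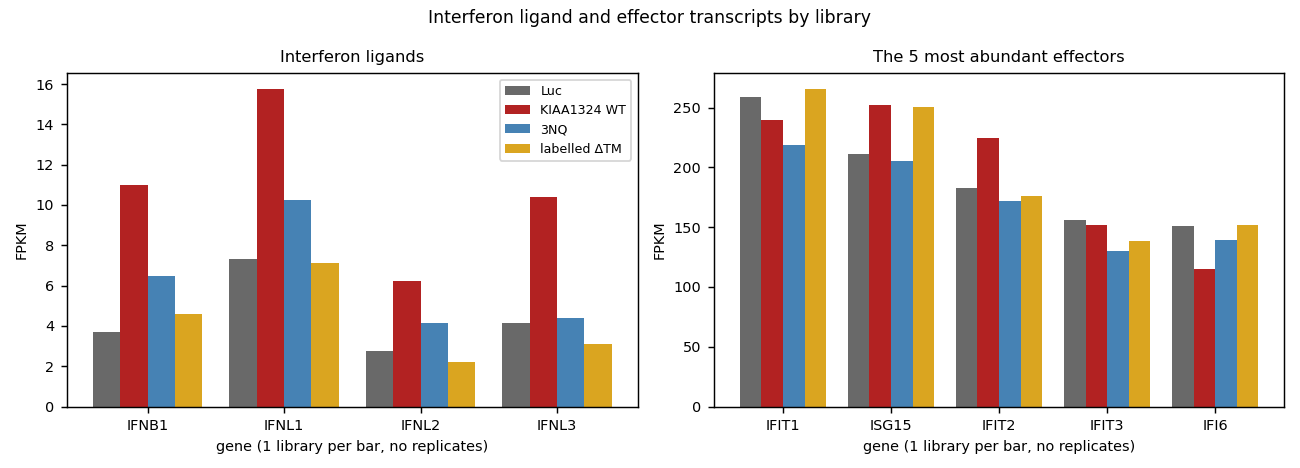
FPKM of the 4 interferon genes that reached 1 FPKM (left) and of the 5 most abundant effectors in Luc (right), with 1 bar per library, linear axes from 0 and no replicates. The WT bar is the tallest for each ligand, while among the effectors the tallest bar is in WT for ISG15 and IFIT2, in the library labelled ΔTM for IFIT1 and IFI6, and in Luc for IFIT3.

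None of the 6 receptor chains and kinases was called in any library against Luc. For 6 genes this is near the share of all tested genes, of which 1.54% to 3.36% were called in each direction. The medians of these 6 genes were 0.14 in WT and 0.042 in 3NQ, against −0.081 in the library labelled ΔTM. JAK1 (ENSG00000162434), the kinase shared by the interferon receptors, was the most abundant, with 56.1 FPKM in Luc, 68.3 in WT and 62.5 in 3NQ, against 60.0 in the library labelled ΔTM. Luc was the lowest of the 4 libraries, and the ratio of WT to Luc was 0.28. IFNGR2, the signalling chain of the type II receptor, had 38.3, 48.1, 40.3 and 31.3 FPKM in the same order. Its WT level was above Luc (0.32) and its level in the library labelled ΔTM below it (−0.28), and between WT and that library it was called higher, with a log2 ratio of 0.60, which rescaling by the median of ratios took below the threshold (0.55). The other chains kept to a narrow range. IFNAR1 lay between 43.2 and 47.7 FPKM, IFNAR2 between 14.9 and 17.8, IFNGR1 between 42.0 and 53.1 and TYK2 between 19.2 and 21.1. A second entry under the symbol IFNAR2, which overlaps the first on chromosome 21, had 1.45, 2.81, 4.20 and 1.31 FPKM and was not used. Receptor chains of the IFN-lambdas were in the list of other signalling genes. Chosen after their values were seen, IFNLR1 had 4.80 FPKM in Luc and 5.83 in WT, and IL10RB had 54.3 and 51.6.

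None of the 7 STAT and IRF factors was called against Luc, which is near the share of all tested genes (1.54% to 3.36% per direction). IRF2, which opposes activation by IRF1, was the most abundant, with 33.5 FPKM in Luc, 33.6 in WT and 35.8 in 3NQ, against 40.9 in the library labelled ΔTM. The library labelled ΔTM was the highest, by a log2 ratio of 0.28 to Luc. IRF9, the DNA-binding subunit of ISGF3, varied most of the factors, with 14.2, 19.5, 15.4 and 10.4 FPKM. It was above Luc in WT (0.43) and below Luc in the library labelled ΔTM (−0.42), and the ratio between WT and that library was 0.85, past 1.5-fold. Its partner STAT2 lay between 21.3 and 24.8 FPKM. IRF3 and IRF7, which switch on interferon genes after a sensor has fired, had ratios of WT to Luc of −0.12 and 0.29. IRF1 and STAT3 differed by at most 0.084 from Luc in any library.

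The sensors and adaptors held no called gene in any of the 6 comparisons between libraries. For 5 genes this is near the share of all tested genes, of which 1.46% to 4.25% were called in each direction. DDX58 (ENSG00000107201), the gene of the RNA sensor RIG-I, was the most abundant, with 122.8 FPKM in Luc, 113 in WT and 97.8 in 3NQ, against 113 in the library labelled ΔTM. Luc was the highest and 3NQ the lowest library. IFIH1, the gene of the RNA sensor MDA5, was highest in WT, with 43.6, 57.2, 48.7 and 43.5 FPKM and a ratio of 0.38 to Luc. TMEM173, the gene of STING, which relays sensing of cytosolic DNA, was lowest in WT, with 38.7, 29.8, 33.6 and 38.4 FPKM and a ratio of −0.36. MAVS, the mitochondrial adaptor of RIG-I and MDA5, lay between 21.4 and 24.9 FPKM. DHX58, which encodes LGP2, a regulator of these sensors, lay between 2.62 and 3.27 FPKM.

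The most abundant effectors did not reach 1.5-fold in any of the 6 comparisons. Per direction, 1.46% to 4.25% of all tested genes did. IFIT1, whose protein binds viral RNA lacking a host cap, had 259 FPKM in Luc, 240 in WT and 218 in 3NQ, against 265 in the library labelled ΔTM. ISG15, a ubiquitin-like modifier, had 211, 252, 206 and 251 FPKM, so that WT and the library labelled ΔTM stood above Luc by nearly the same ratio (0.25 each). IFIT2 had 182, 225, 172 and 176 FPKM, and IFIT3 had 156, 152, 130 and 138. IFIT2 was thus highest in WT while IFIT3 and IFIT1, which follow it in that order on chromosome 10, were not. IFI6, an antiviral membrane protein, was lowest in WT, with 151 FPKM in Luc, 115 in WT and 139 in 3NQ, against 152 in the library labelled ΔTM. IFI44 was below Luc in WT (−0.37) and in 3NQ (−0.40).

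Other effectors that did not pass the threshold lay on either side of Luc. RSAD2, the gene of the antiviral enzyme viperin, had 19.9 FPKM in Luc, 27.4 in WT and 19.4 in 3NQ, against 19.1 in the library labelled ΔTM, a ratio of 0.44 in WT that did not reach the threshold. USP18, which removes ISG15 and dampens receptor signalling, lay between 31.6 and 39.9 FPKM and was highest in WT. IFI35 was above Luc in all 3 other libraries, with ratios of 0.40, 0.45 and 0.29, and IFIT5 likewise with 0.15, 0.29 and 0.17. MX1, a dynamin-like antiviral GTPase, lay between 1.03 and 1.79 FPKM.

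ISG20, an RNA exonuclease, was called higher in WT. Its FPKM stood at 30.3 in Luc, 46.0 in WT and 37.5 in 3NQ, against 27.9 in the library labelled ΔTM, and its ratio to Luc was 0.59, 0.30 and −0.12. It was the only called member in WT with more than 5 FPKM, and it was just past the threshold, since it no longer reached it when the libraries were rescaled by the upper quartile (0.58). GBP2, a guanylate-binding GTPase, had 1.22 FPKM in Luc, 3.16 in WT and 0.97 in 3NQ, against 0.90 in the library labelled ΔTM. WT stood apart from the other 3 libraries, with a ratio of 0.91 to Luc and of 1.08 to 3NQ. MX2, a relative of MX1 that acts at the nuclear envelope, had 0.48, 1.42, 0.95 and 0.70 FPKM and a ratio of 0.71 in WT. Luc was its lowest library, and its values are close to the level of the filter.

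IFI27 had the widest range of the 45 genes on the scale with a pseudocount of 1, whereas with a pseudocount of 0.1 the range of GBP2 was wider. Its FPKM stood at 3.63 in Luc, 3.29 in WT and 7.21 in 3NQ, against 9.51 in the library labelled ΔTM, so that Luc and WT were low and the other 2 libraries high. Its ratio to Luc was −0.11, 0.83 and 1.18. In WT against 3NQ it was the 1 gene called lower (−0.94), as GBP2 was the 1 called higher, each 2.22% of the 45 genes, where 2.89% of all tested genes were higher and 1.58% lower. XAF1, a pro-apoptotic partner of XIAP, had 0.54, 0.83, 1.40 and 1.35 FPKM, with ratios of 0.25, 0.64 and 0.61. IFI44L had 1.46, 1.499, 2.38 and 2.77 FPKM, with ratios of 0.023, 0.46 and 0.61. As in IFI27, Luc was below 3NQ and below the library labelled ΔTM in both genes.

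BST2, the gene of tetherin, which holds budding virus at the cell surface, was high in the library labelled ΔTM alone. Its FPKM stood at 1.77 in Luc, 1.28 in WT and 1.27 in 3NQ, against 3.39 in the library labelled ΔTM, a ratio of 0.67 to Luc in that library and of −0.28 and −0.29 in WT and 3NQ. OAS1, an oligoadenylate synthetase that activates RNase L, was highest in 3NQ and lowest in the library labelled ΔTM, with 6.32, 8.51, 10.4 and 5.06 FPKM. Its ratio to Luc was 0.38, 0.63 and −0.27. OASL, a relative of OAS1 that lacks the synthetase activity and acts with RIG-I, had 46.8, 41.2, 30.8 and 37.8 FPKM. It was highest in Luc and lowest in 3NQ, where the ratio of −0.59 was just past the threshold and did not reach it on rescaling with the median of ratios (−0.55) and likewise with the upper quartile (−0.57).

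Between WT and the library labelled ΔTM, 5 genes were called higher in WT (IFNGR2, IRF9, ISG20, OAS1 and GBP2) and 3 lower (IFI27, IFI44L and BST2). These were 11.1% and 6.67% of the 45 genes, while 4.25% and 2.91% of all tested genes were. This was the comparison with the most calls among all tested genes, of which 59.3% were higher, and 48.3% when rescaled with the median of ratios. Between 3NQ and the library labelled ΔTM, OAS1 was higher (0.91) and BST2 lower (−0.95), each 2.22% of the 45 genes, where 1.46% and 1.88% of all tested genes were.

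None of the 7 compared genes of class I presentation was called in any of the 6 comparisons. For 7 genes this is near the share of all tested genes, of which 1.46% to 4.25% were called in each direction. B2M (ENSG00000166710), the light chain of every class I molecule, was the most abundant of the 49 genes, with 2758 FPKM in Luc, 2962 in WT and 3029 in 3NQ, against 2658 in the library labelled ΔTM. All 4 libraries lay within 1.14-fold of each other. The heavy chain HLA-C had 164, 149, 194 and 170 FPKM, and HLA-B had 69.4, 69.8, 72.4 and 74.0. WT was the lowest library for HLA-C and 3NQ the highest. Reads of HLA genes are shared between near-identical copies and vary in how well they map to the reference alleles, so levels of single HLA genes are uncertain. HLA-E, of the list of other class I genes and chosen after its values were seen, lay between 56.3 and 62.1 FPKM.

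The peptide transporter subunits TAP1 and TAP2 were highest in 3NQ, with ratios to Luc of 0.21 and 0.36, and tapasin (TAPBP), which tethers class I molecules to the transporter, was lowest there, with a ratio of −0.26. TAP1 lay between 22.3 and 26.2 FPKM, TAP2 between 43.3 and 58.5 and TAPBP between 41.1 and 54.7. A second entry under the symbol TAP2, which overlaps the first on chromosome 6, had 6.76 FPKM in Luc, 3.01 in WT and 3.56 in 3NQ, against 9.60 in the library labelled ΔTM. The immunoproteasome subunit PSMB9 lay between 5.15 and 6.02 FPKM. Its deposited interval on the plus strand of chromosome 6, from 32811913 to 32827362, overlaps those of PSMB8 and TAP1 on the minus strand, and reads of overlapping genes on opposite strands cannot be told apart where the counting is not stated to use strand.

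Another 18 class I genes, of which 14 were compared, held 0 called genes in WT, 2 higher in 3NQ (CANX and PDIA3) and 3 higher in the library labelled ΔTM (CALR, CANX and PDIA3). These are 14.3% and 21.4% of the 14 genes, where 1.77% and 1.54% of all tested genes were higher. The values of these 3 genes were chosen for the text after the calls were seen. Calreticulin (CALR) had 757 FPKM in Luc, 693 in WT and 1107 in 3NQ, against 1830 in the library labelled ΔTM. Calnexin (CANX) had 249, 280, 392 and 431 FPKM, and the disulfide isomerase PDIA3 (ERp57) had 447, 436, 746 and 679. In all 3, Luc and WT were the 2 lower libraries. These chaperones help load class I molecules and also fold glycoproteins of the endoplasmic reticulum in general. In the plot of class I genes against Luc they lie past the upper dashed line in the library labelled ΔTM, while the dedicated genes of the pathway lie nearer 0.

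**Figure D4:**
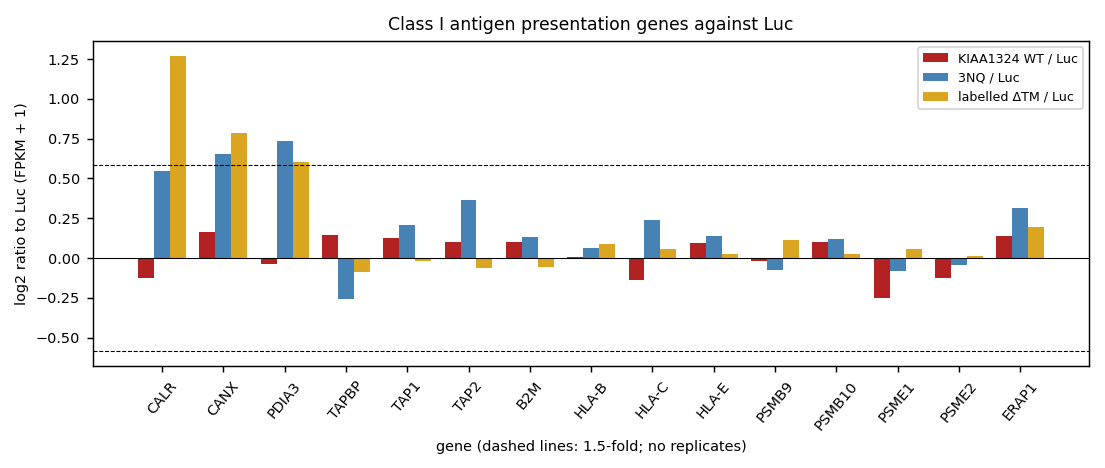
Log2 ratio of FPKM + 1 to Luc for class I presentation genes, with 1 bar each for WT, 3NQ and the library labelled ΔTM, dashed lines at 1.5-fold and no replicates. CALR, CANX and PDIA3 pass 1.5-fold in the library labelled ΔTM, and CANX and PDIA3 in 3NQ, while B2M, the TAP genes, TAPBP, HLA-B and HLA-C lie between the dashed lines.

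Other interferon-stimulated genes, 60 by list and 53 compared, were called in both directions. In WT, 3 were higher (5.66%) and 4 lower (7.55%), in 3NQ 6 were higher (11.3%) and 1 lower (1.89%), and in the library labelled ΔTM 1 was higher and 1 lower (1.89% each). Of all tested genes, 3.36% were higher and 3.34% lower in WT, 1.77% and 2.57% in 3NQ, and 1.54% and 1.57% in the library labelled ΔTM. Their median ratio was 0.10 in WT and 0.035 in 3NQ, against 0.029 in the library labelled ΔTM. TRIM22, an antiviral ubiquitin ligase, had 3.17 FPKM in Luc, 7.13 in WT and 5.39 in 3NQ, against 4.74 in the library labelled ΔTM, and the nuclear body protein SP110 had 9.26, 17.9, 13.1 and 10.8. Both were highest in WT and lowest in Luc. IFITM2, a membrane protein that blocks virus entry, was lowest in WT, with 6.19, 1.77, 2.86 and 3.76 FPKM and a ratio of −1.38. LY6E had 468, 285, 374 and 423 FPKM (−0.71 in WT), and LGALS3BP had 20.8, 13.5, 19.1 and 22.7 (−0.59 in WT, and −0.58, short of the threshold, when rescaled with the median of ratios). IFITM1, chosen after its values were seen, was highest in the library labelled ΔTM, with 1.79, 2.24, 3.79 and 5.17 FPKM. IFITM genes share sequence, so that their separate levels are uncertain.

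Among 29 other signalling genes, 24 of them compared, CYLD was the only call against Luc, higher in WT. It makes up 4.17% of the 24, near the 3.36% of all tested genes called higher in WT. CYLD, a deubiquitinase that restrains RIG-I and NF-kappa B signalling, had 19.5 FPKM in Luc, 31.6 in WT and 20.7 in 3NQ, against 18.9 in the library labelled ΔTM. WT stood above the other 3, which lay close together.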

How the data were processed

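The authors enriched poly(A) RNA, built TruSeq libraries, sequenced them on a HiSeq2500, mapped reads to GRCh37 with TopHat and estimated genes with Cufflinks 2.1.1, while masking regions that do not code and correcting for fragment bias and repeatedly mapped reads. The deposited table holds FPKM, scaled by the authors for depth and length, and no read counts. A listed 0 can be a failed estimate.

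From these values, log2 ratios with a pseudocount of 1 were computed in Python 3.11.15 (numpy 2.4.6, pandas 2.3.3) for entries that reached 1 FPKM in any library, in all 6 comparisons, and called at 1.5-fold. There was 1 library per group, so no test was made. The steps were tested on simulated data. Changes were planted only in abundant genes and were larger than the 1.5-fold threshold. Recovery of changes in low genes or near the threshold was thus not covered. The worth of 1 fragment was read from the smallest steps of single-exon genes. A second estimate, from the values of the lowest genes, put it relative to Luc at 1.03 in WT and 0.892 in 3NQ, against 0.977 in the library labelled ΔTM, which differs from the ratios of the first, so that both are approximate. Figures were drawn with matplotlib 3.10.9.

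The 49 genes and the other lists, written from general knowledge, were chosen with earlier results of these data known. Values in every library were given for members past 1.5-fold against Luc and for the most abundant receptor or kinase, factor, sensor and class I chain. Up to 6 genes per other list were named, by their ratio of WT to Luc, among those past 1.5-fold that reached 5 FPKM. Other genes whose values stand in the text were chosen after they were seen. Results were recomputed with pseudocounts of 0.1 and 5, a threshold of 2-fold, without the filter or with one of 5 FPKM, after rescaling (median of ratios, upper quartile), and with the entries of a symbol summed. Single values of some genes on these lists are not reported here.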

Additional observations from a re-analysis of the deposited data

How the results depend on the processing

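No paired analysis was possible because each group had 1 library, and for the same reason no replicate could be left out. Of the counts and list medians, 87 in all, none changed by more than its limit with no filter or with summed entries of a symbol, though the latter turned the class I median of WT against the library labelled ΔTM from 0.15 to −0.032. With a 2-fold threshold, the counts of members higher fell from 3 to 0 in WT, from 3 to 0 in 3NQ and from 4 to 1 in the library labelled ΔTM (each against Luc), and the count lower in 3NQ fell from 1 to 0. In WT against the library labelled ΔTM they fell from 5 to 1 higher and from 3 to 1 lower, in WT against 3NQ from 1 to 0 lower, and in 3NQ against the library labelled ΔTM from 1 to 0 in both directions. Under the same threshold against Luc, other interferon-stimulated genes fell to 0 higher and 1 lower in WT, to 0 and 0 in 3NQ, and to 0 lower in the library labelled ΔTM. Other class I genes fell to 0 higher in 3NQ, against 1 in the library labelled ΔTM, class II genes to 0 lower in WT and 3NQ, ligands to 0 higher in 3NQ and other signalling genes to 0 higher in WT. A pseudocount of 5 left 0 members higher in WT and 0 in 3NQ, against 1 in the library labelled ΔTM, and 0 lower in 3NQ. It left 2 higher and 1 lower in WT against the library labelled ΔTM, 0 in both directions in WT against 3NQ, and 0 lower in 3NQ against the library labelled ΔTM. It left other interferon-stimulated genes at 1 higher and 2 lower in WT, 1 and 0 in 3NQ and 0 and 0 in the library labelled ΔTM, with 0 class II genes lower in 3NQ, 0 ligands higher in 3NQ (IFNB1 0.40) and 0 other signalling genes higher in WT, and it took IFNL2 in WT to 0.54. A pseudocount of 0.1 gave 5 members higher in 3NQ, 3 lower in WT against 3NQ and 2 lower in 3NQ against the library labelled ΔTM, other interferon-stimulated genes 6 higher in WT and 3 higher in the library labelled ΔTM, 2 other signalling genes higher in WT, and 1 class II and 1 other class I gene lower in the library labelled ΔTM. An FPKM of at least 5 left 1 member higher in WT (ISG20), 1 higher in the library labelled ΔTM (IFI27), 0 higher in WT against 3NQ, 1 lower in WT against the library labelled ΔTM, 0 lower in 3NQ against it and 0 class II genes lower in 3NQ. Both rescalings left 0 members lower in 3NQ and 0 other interferon-stimulated genes lower in the library labelled ΔTM, with 3 higher there under the median of ratios and 2 under the upper quartile. The cause of these changes was not tested beyond what the settings themselves remove. With 1 library per group, a difference between libraries cannot be told apart from a difference between the constructs they carry. The ligands called higher in WT against 3NQ fell from 2 to 1 with a pseudocount of 5 and with the 2-fold threshold.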

Other observations

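Of 12 MHC class II genes, 4 reached 1 FPKM in a library, and the median ratio of these 4 to Luc was −0.19 in WT and −0.12 in 3NQ, against −0.31 in the library labelled ΔTM. IFI30, a lysosomal thiol reductase that prepares peptides for class II, had 62.5 FPKM in Luc, 37.9 in WT and 61.3 in 3NQ, against 45.7 in the library labelled ΔTM, and was called lower in WT (−0.71), where 3.34% of all tested genes were. The class II chain gene HLA-DRB1, chosen after its values were seen, was highest in WT, with 13.2, 19.3, 12.3 and 11.5 FPKM. Its ratio of 0.51 to Luc did not reach 1.5-fold. HLA-DRA, also a class II chain gene and chosen in the same way, had 0.088, 0, 0.039 and 0.233 FPKM. HLA-DPA1, HLA-DPB1, HLA-DQA1 and HLA-DQB1 were below 1 FPKM in every library. As with the class I genes, levels of single HLA genes are uncertain. CD74, the invariant chain, had 1.13, 0.87, 0.32 and 0.51 FPKM and was called lower in 3NQ (−0.69), where 2.57% of all tested genes were. It passed the filter of 1 FPKM only through Luc, its highest library, which favours such a call.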
